A study of Bos taurus with 36 samples.

Results

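The genes of fatty acid oxidation and ketogenesis were followed in the liver of dairy cows after infusion of lipopolysaccharide (LPS), a cell wall component of E. coli, into the udder. The list names 39 genes, chosen by their known role but with earlier results of these data known. A probe set belonged to the list when its only annotated gene was one of them. Of the 39 genes, 34 had such a probe set, with 42 probe sets among the 24128 of the Affymetrix Bovine Genome Array. CPT1A, ACSL4, ACAD8, ETFDH and EHHADH were not analysed here. The genes were grouped by the main known place of each enzyme, although CRAT, ECI2, SCP2 and SLC27A2 also occur in other compartments. For activation and mitochondrial uptake 6 of 8 listed genes were measured, and for mitochondrial oxidation 16 of 18. For peroxisomal oxidation 10 of 11 were measured, and for ketogenesis 2 of 2.

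Liver biopsies came from 8 healthy Holstein-Friesian cows, all first-lactation animals that had calved 9 to 12 weeks earlier, and each of the 36 arrays holds 1 cow at 1 time point. All cows received 200 µg of E. coli LPS (0111:B4) in 10 ml of 0.9% NaCl on the right front side of the udder, and NaCl alone on the left front side. Biopsies of all 8 cows were measured before LPS (-22 h) and at 9 and 48 h after it, and those of 4 cows (cows 1, 3, 7 and 8) also at 3, 6 and 12 h. No array of a cow without LPS was analysed here, so a change with time and a change with LPS cannot be told apart. Likewise, fewer cells of a type and less RNA per cell cannot be told apart in a whole biopsy.

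A fatty acid is first bound to coenzyme A by an acyl-CoA synthetase, carried into the mitochondrion on carnitine, and then shortened to acetyl-CoA in a cycle of dehydrogenation, hydration, dehydrogenation and thiolysis. Peroxisomes shorten very long and branched chains with their own enzymes and hand the products on to the mitochondria. In the liver part of the acetyl-CoA is turned into ketone bodies. In a lactating dairy cow both routes are known to take up fatty acids released from fat tissue. How large that flow was in these cows was not examined here.

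Values are log2 signals, normalized by the authors with GCRMA (background correction, quantile normalization and 1 value per probe set). The medians of the arrays lie between 4.15 and 4.38, and the number of cows limits the precision. Each hour was compared with -22 h with limma, and genes with a p below 0.05 after Benjamini-Hochberg adjustment across the whole array were called lower or higher. A gene was read through its brightest probe set, and all 9155 genes read in this way give the background. Values of cows 1, 3, 7 and 8 are given in that order at 3, 6 and 12 h, and the lowest, median and highest of 8 cows at the other hours. The defining hepatocyte marker, albumin (ALB), changed by -0.06 (SE 0.04) at 9 h and did not pass the test. The signal summed over the 10 hepatocyte markers lay between 319711 and 414445 at -22 h and between 335468 and 371652 at 9 h. Of the 10, 6 passed as lower and 2 as higher, against 28.4% and 36.6% of all genes. The sum therefore joins markers that fell with markers that rose, and whether the amount of hepatocyte RNA changed was not tested.

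Most genes of the pathway were lower from 6 to 12 h after LPS and were again near their starting level at 48 h. At 3 h none of the 34 genes passed the test in limma in either direction, where 2.57% of all genes passed as lower and 4.47% as higher. At an unadjusted p below 0.05 6 genes were lower and 1 higher, and SLC25A20 passed without cow 1 (adjusted p = 0.0497) and ACAA2 with the cow as a block (0.0441). ACAA2 and SCP2 had all 4 values below those of -22 h (2.06% of all genes). At 6 h 27 genes were lower and 1 higher (29.3% and 26% of all genes), and at 9 h 32 were lower and 2 higher (28.4% and 36.6%). At 12 h 30 were lower and none higher (22.2% and 30.9%). That count of 0 was also 0 at an unadjusted p below 0.05, and rose to 1, ACSL1, without cow 8.

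The median log2 change of the 34 genes was -0.08 at 3 h, -0.67 at 6 h, -1.24 at 9 h, -1.62 at 12 h and -0.02 at 48 h, and that of all genes stayed between -0.02 and 0.04. A fall of at least 2-fold was found in 8 genes at 6 h, 20 at 9 h and 23 at 12 h, against 13.5%, 15.4% and 12.3% of all genes. The values of 27 genes at 9 h lay entirely below those of -22 h (17.6% of all genes), as did those of 21 at 6 h (21.3%) and 26 at 12 h (15.2%). In each of the 8 cows, between 31 and 33 of the 34 genes were lower at 9 h than in the same cow at -22 h. By the rule for differentially expressed (DE) transcripts, a Bonferroni-adjusted p below 0.01 in at least 1 comparison of successive hours, 22 of the 34 genes were DE, against 31.8% of all genes.

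**Figure D1:**
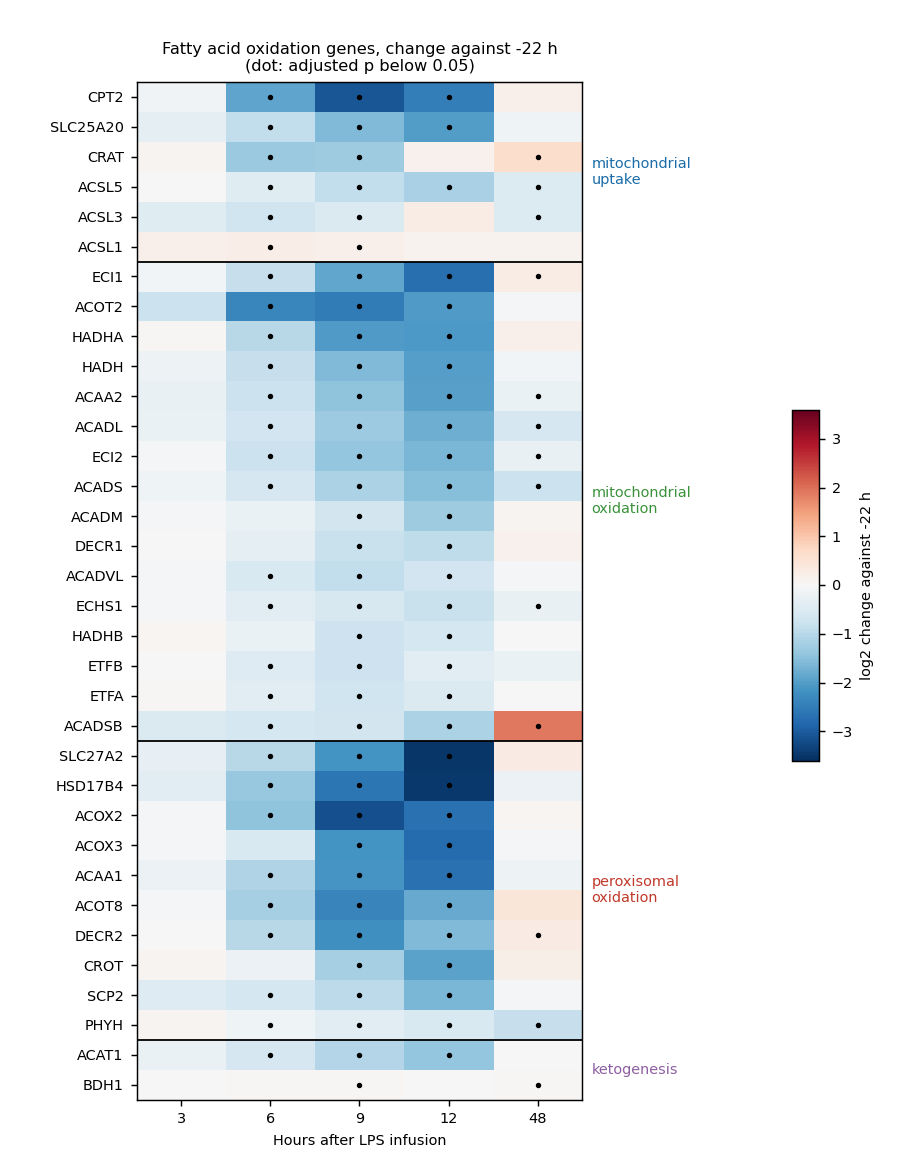
Log2 change of each of the 34 genes (rows, by role and then by largest change) against -22 h at 3, 6, 9, 12 and 48 h (columns). Blue is lower, red is higher and a dot marks an adjusted p below 0.05. No gene has a dot at 3 h and 32 are lower at 9 h, and the darkest cells are those of SLC27A2 and HSD17B4 at 12 h.

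Of the 6 genes of activation and mitochondrial uptake, 5 were lower and 1 higher at 6 and at 9 h, and 3 were lower at 12 h. Of all genes, 29.3%, 28.4% and 22.2% were lower at these hours, and 26% and 36.6% were higher at 6 and 9 h. The median changes of the 6 genes were -0.80, -1.09 and -0.52. The largest falls were those of the carnitine shuttle. CPT2, the inner membrane carnitine palmitoyltransferase that returns the acyl group to coenzyme A, had values of 10.25, 10.54 and 10.76 at -22 h (lowest, median and highest). They were 10.42, 10.39, 10.40 and 10.51 at 3 h, 8.52, 8.47, 8.81 and 8.85 at 6 h, 7.35, 7.49 and 7.62 at 9 h, 8.05, 8.22, 7.75 and 8.27 at 12 h, and 10.21, 10.78 and 11.04 at 48 h. No value at 6, 9 or 12 h overlapped with those of -22 h, and every cow was lowest at 9 h. CPT2 at 9 h was at 11.7% of its level at -22 h, a log2 change of -3.09 (SE 0.09, n = 8, adjusted p = 4.88e-23).

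SLC25A20 encodes the translocase that exchanges acylcarnitine for carnitine across the inner membrane. Its values were 11.43, 11.69 and 11.96 at -22 h, 11.66, 11.07, 11.28 and 11.38 at 3 h, and 11.07, 10.82, 10.66 and 10.57 at 6 h. They went down to 9.84, 10.00 and 10.43 at 9 h and to 9.80, 9.47, 9.50 and 9.83 at 12 h, and were 11.10, 11.53 and 11.82 at 48 h. The groups at 6, 9 and 12 h lay below all values of -22 h, and the change at 12 h was -2.02 (SE 0.12, n = 4, adjusted p = 6.99e-15). A second probe set of this gene changed by -1.95 (SE 0.17) at 12 h, and at 48 h the pair had changes of opposite sign, -0.16 and 0.20, neither of which passed.

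CRAT, the carnitine acetyltransferase that moves short acyl groups between carnitine and coenzyme A, fell early and overlapped with its starting level again at 12 h. It had values of 6.95, 7.38 and 7.58 at -22 h and of 7.48, 7.35, 7.44 and 7.62 at 3 h. It stood at 6.00, 5.88, 6.12 and 6.12 at 6 h and at 5.66, 6.00 and 6.57 at 9 h, then at 7.79, 7.37, 7.15 and 7.70 at 12 h, and at 7.72, 8.02 and 8.39 at 48 h. At 6 and 9 h all values were below those of -22 h, at 12 h the groups overlapped, and at 48 h all 8 values were above. CRAT changed by -1.28 (SE 0.11, adjusted p = 1.23e-11) at 9 h and by 0.63 (SE 0.11, adjusted p = 0.000155) at 48 h, when 2.1% of all genes had all values above those of -22 h.

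The acyl-CoA synthetases, which activate long-chain fatty acids, did not move together. ACSL5 had values of 13.16, 13.37 and 13.48 at -22 h, 13.18, 13.39, 13.38 and 13.50 at 3 h, 12.79, 13.05, 12.89 and 12.97 at 6 h, 12.17, 12.48 and 12.74 at 9 h, 12.14, 12.10, 12.22 and 12.26 at 12 h, and 12.28, 12.87 and 13.18 at 48 h. It was lower from 6 to 48 h, with a change of -1.17 (SE 0.11, adjusted p = 1.55e-10) at 12 h. ACSL1 had values of 13.23, 13.46 and 13.65 at -22 h, 13.67, 13.45, 13.67 and 13.72 at 3 h, 13.61, 13.61, 13.77 and 13.76 at 6 h, 13.43, 13.63 and 13.72 at 9 h, 13.71, 13.70, 13.63 and 13.18 at 12 h, and 13.37, 13.61 and 13.71 at 48 h. Its values overlapped with those of -22 h at every hour, and it was lower at none. It passed as higher at 6 h, by 0.25 (SE 0.09, adjusted p = 0.0185), and at 9 h, by 0.18 (SE 0.07, adjusted p = 0.0371). The rise at 6 h did not pass with the cow as a block (adjusted p = 0.0796) or without cow 7 (0.0764), and that at 9 h did not pass without cow 1, 2, 4, 5, 6 or 7 (adjusted p from 0.0529 to 0.129). In the 4 cows with all hours alone ACSL1 changed by 0.12 at 6 h (adjusted p = 0.333) and by 0.01 at 9 h (adjusted p = 0.921), against 0.34 at 9 h in the other 4 cows. ACSL3 was lower at 6 h (-0.71, SE 0.22) and 9 h (-0.51, SE 0.18) and stood at 0.26 (SE 0.22, adjusted p = 0.418) at 12 h. Its values were 7.74, 8.20 and 8.45 at -22 h, 7.76, 7.51, 7.75 and 7.82 at 3 h, and 7.35, 7.42, 7.55 and 7.43 at 6 h. They were 6.86, 7.75 and 8.23 at 9 h, 9.04, 7.74, 7.85 and 9.02 at 12 h, and 7.12, 7.75 and 7.92 at 48 h. At 12 h a dimmer probe set of ACSL3 had values of 7.65, 7.13, 7.15 and 7.98, within its range of 6.92 to 8.30 at -22 h. Another dimmer probe set had 8.57, 7.61, 7.34 and 8.89 at 12 h, beside a range of 7.53 to 8.27 at -22 h. In it cows 1 and 8 lay above that range, as they did in the brightest probe set. The fall of ACSL3 at 9 h in the brightest probe set was lost without cow 3 or 4 (adjusted p = 0.0801 and 0.0518).

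Of the 16 genes of mitochondrial oxidation 13 were lower at 6 h, all 16 at 9 h and all 16 at 12 h. Of all genes, 29.3%, 28.4% and 22.2% were lower at these hours. The median changes of the 16 genes were -0.61, -1.02 and -1.41. ECI1, an isomerase that moves the double bond of unsaturated acyl-CoAs into the position the cycle needs, had values of 12.18, 12.33 and 12.59 at -22 h and of 12.19, 12.16, 12.33 and 12.34 at 3 h. It declined through 11.40, 11.54, 11.64 and 11.60 at 6 h and 10.10, 10.47 and 10.89 at 9 h to 9.55, 9.37, 10.05 and 9.65 at 12 h, and was at 12.19, 12.72 and 12.80 at 48 h. Each of the 4 cows fell at each step from 3 to 12 h, and at 12 h ECI1 was at 15.3% of its level at -22 h (log2 change -2.71, SE 0.12, adjusted p = 2.37e-18).

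HADHA, the alpha subunit of the trifunctional protein that carries out the hydration and the later dehydrogenation of long chains, had values of 9.93, 10.36 and 10.87 at -22 h. They were 10.09, 10.55, 10.66 and 10.51 at 3 h, 9.27, 9.58, 9.43 and 9.36 at 6 h, 8.04, 8.41 and 8.65 at 9 h, 8.44, 8.01, 8.14 and 8.80 at 12 h, and 10.03, 10.56 and 11.27 at 48 h. The groups at 6, 9 and 12 h lay below -22 h without overlap, and the changes at 9 and 12 h were -2.05 (SE 0.14) and -2.07 (SE 0.17). HADHB, its thiolase subunit, changed by -0.75 (SE 0.14) at 9 h and -0.63 (SE 0.17) at 12 h, with groups that overlapped with -22 h, and by -0.23 (SE 0.17, adjusted p = 0.244) at 6 h. With the cow as a block its change at 6 h passed, at -0.38 (adjusted p = 0.000456).

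HADH, the dehydrogenase for medium and short 3-hydroxyacyl-CoAs, had values of 12.35, 12.69 and 12.92 at -22 h, 12.27, 12.59, 12.61 and 12.40 at 3 h, and 11.60, 12.08, 11.84 and 11.74 at 6 h. Its values were 10.50, 11.00 and 11.50 at 9 h, 10.67, 10.69, 10.48 and 10.80 at 12 h, and 11.87, 12.55 and 12.95 at 48 h. It was below all values of -22 h at 6, 9 and 12 h, and at 25.2% of that level at 12 h (log2 change -1.99, SE 0.16). ACOT2, a mitochondrial thioesterase that frees fatty acids from coenzyme A, had values of 5.30, 6.10 and 6.89 at -22 h and of 5.13, 5.10, 5.52 and 5.60 at 3 h. It stood at 3.58, 4.01, 3.44 and 3.94 at 6 h, 3.11, 3.41 and 4.22 at 9 h, 4.18, 3.87, 3.92 and 4.29 at 12 h, and 5.42, 6.17 and 6.60 at 48 h. ACOT2 had the largest fall of the 34 genes at 6 h, -2.36 (SE 0.26, adjusted p = 3.05e-09), and its own largest at 9 h (-2.53, SE 0.21). These low values are not far above the lower end of the scale, so the falls may be bounds.

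The other enzymes of the mitochondrial cycle fell less or as much. At 12 h the thiolase ACAA2 changed by -1.95 (SE 0.09), the isomerase ECI2 by -1.64 (SE 0.12), and the reductase DECR1, which acts on unsaturated chains, by -0.92 (SE 0.15). The acyl-CoA dehydrogenases, which open the cycle and are named by chain length, changed at 12 h by -1.77 (SE 0.23) for the long-chain ACADL, -1.54 (SE 0.15) for the short-chain ACADS, -1.29 (SE 0.13) for the medium-chain ACADM and -0.69 (SE 0.10) for the very long-chain ACADVL. The hydratase ECHS1 changed by -0.79 (SE 0.09). ETFA and ETFB, the subunits of the flavoprotein that takes the electrons from these dehydrogenases, changed by -0.53 (SE 0.12) and -0.37 (SE 0.12), and the change of ETFB did not pass without cow 1 (adjusted p = 0.124). At 6 h the calls of ACADL and ETFA did not pass without cow 1 or 3. That of ACADSB at 6 h still passed when cow 7 was left out, and was lost without any other cow (adjusted p from 0.0519 to 0.102), and with the cow as a block its change was -0.34 (adjusted p = 0.172).

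**Figure D2:**
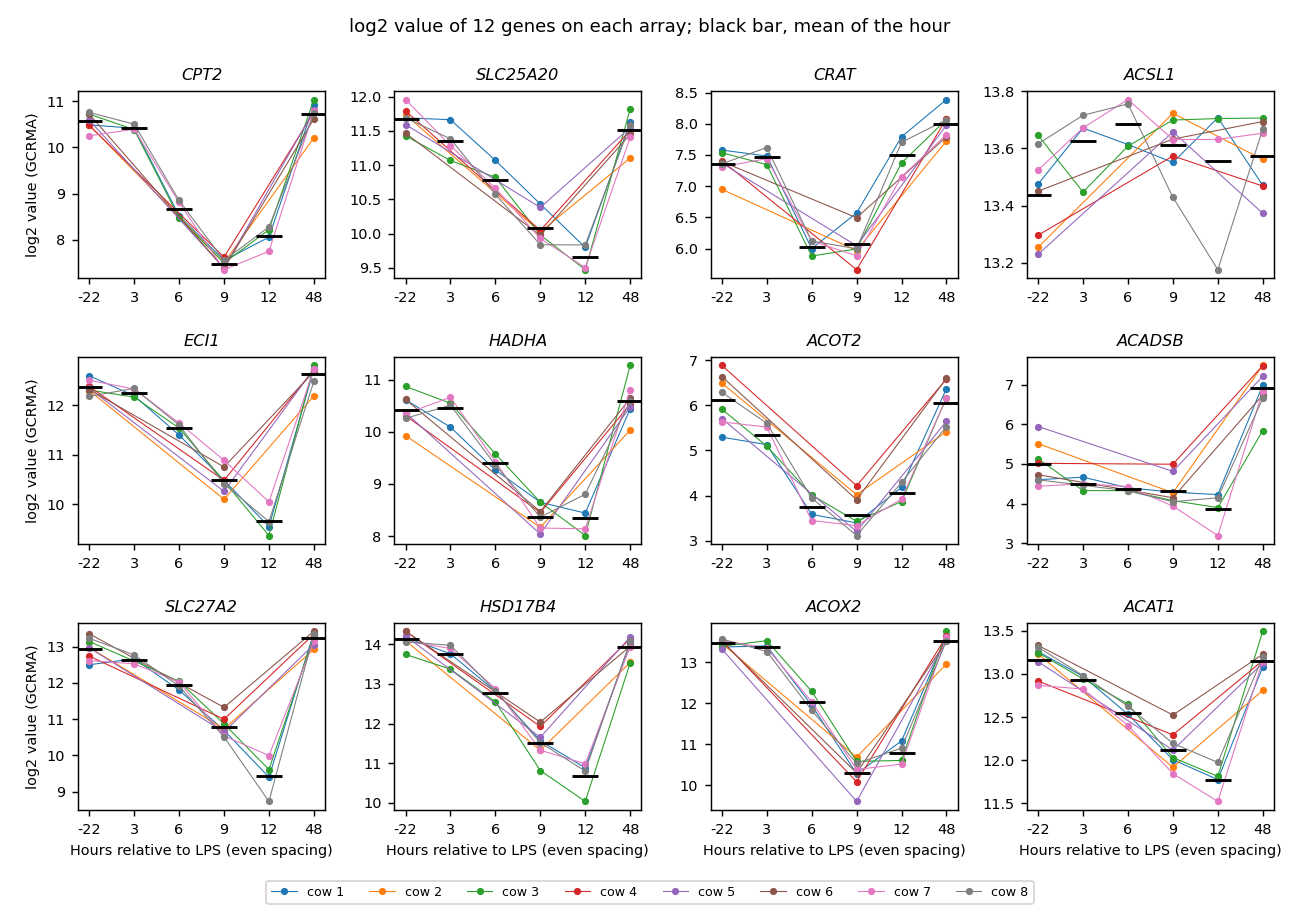
Log2 value of 12 of the genes on each array (y axis) at each hour (x axis, evenly spaced), with 1 line per cow and a black bar for the mean of the hour. The y axes differ between panels. CPT2 and CRAT turn upward between 9 and 12 h, SLC27A2, ECI1 and HSD17B4 go on falling, ACSL1 stays within 13.18 and 13.77, and ACADSB is highest at 48 h.

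Of the 10 genes of peroxisomal oxidation 8 were lower at 6 h, with a median change of -0.99. At 9 and at 12 h all 10 were lower with no value overlapping -22 h, and the median changes were -2.15 and -2.31. Of all genes, 29.3%, 28.4% and 22.2% were lower at 6, 9 and 12 h. All values lay below those of -22 h in 17.6% of all genes at 9 h and in 15.2% at 12 h. SLC27A2, the acyl-CoA synthetase for very long chains, had values of 12.50, 12.97 and 13.35 at -22 h and of 12.66, 12.60, 12.52 and 12.77 at 3 h. They were 11.80, 12.04, 12.03 and 11.91 at 6 h, 10.51, 10.71 and 11.32 at 9 h, 9.40, 9.61, 9.99 and 8.73 at 12 h, and 12.92, 13.32 and 13.42 at 48 h. Each of the 4 cows was lowest at 12 h, when SLC27A2 was at 8.79% of its level at -22 h (log2 change -3.51, SE 0.17, adjusted p = 1.67e-17).

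HSD17B4, the bifunctional protein that hydrates and then dehydrogenates the peroxisomal acyl-CoAs, had values of 13.75, 14.13 and 14.34 at -22 h and of 13.76, 13.38, 13.90 and 13.98 at 3 h. It went through 12.82, 12.55, 12.88 and 12.83 at 6 h and 10.81, 11.54 and 12.04 at 9 h to 10.88, 10.03, 10.98 and 10.80 at 12 h, and stood at 13.53, 14.00 and 14.19 at 48 h. From 6 to 12 h all its values lay below those of -22 h, and at 12 h it was at 9.09% of that level (log2 change -3.46, SE 0.18, adjusted p = 9.45e-17). Its dimmer probe set changed by -2.76 (SE 0.30) at 9 h and -2.67 (SE 0.37) at 12 h.

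ACOX2 and ACOX3 are oxidases that open the peroxisomal cycle for branched chains, ACOX2 also for the side chain of bile acid precursors. ACOX2 had values of 13.33, 13.49 and 13.57 at -22 h, 13.40, 13.53, 13.35 and 13.26 at 3 h, 11.95, 12.29, 12.04 and 11.83 at 6 h, 9.60, 10.34 and 10.68 at 9 h, 11.08, 10.60, 10.51 and 10.90 at 12 h, and 12.96, 13.58 and 13.76 at 48 h. Its fall at 9 h, -3.16 (SE 0.12, adjusted p = 8.5e-21), left 11.2% of the level at -22 h. ACOX3 had values of 9.35, 9.52 and 10.20 at -22 h, 9.73, 9.49, 9.68 and 9.33 at 3 h, 9.20, 9.40, 9.21 and 8.44 at 6 h, 6.60, 7.65 and 8.13 at 9 h, 7.41, 6.49, 7.39 and 6.02 at 12 h, and 8.93, 9.57 and 9.97 at 48 h. ACOX3 began later: its 4 values at 6 h overlapped with -22 h (-0.55, SE 0.27, adjusted p = 0.0942), and it changed by -2.14 (SE 0.22) at 9 h and -2.78 (SE 0.27) at 12 h. With the cow as a block the change at 6 h passed, at -0.61 (adjusted p = 0.00853).

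The remaining peroxisomal genes fell by unequal amounts. At 12 h the thiolase ACAA1 changed by -2.69 (SE 0.16), CROT, which puts medium-chain products on carnitine for export, by -1.94 (SE 0.13), the thioesterase ACOT8 by -1.81 (SE 0.28), SCP2, the thiolase and sterol carrier of branched chains, by -1.66 (SE 0.15), and the reductase DECR2 by -1.59 (SE 0.10). The second probe set of ACOT8 lay between 1.86 and 1.97 on all arrays, at the lower end of the scale, where no fall can be seen.

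PHYH, the hydroxylase that starts the alpha-oxidation of phytanic acid, went on falling to 48 h and was named after its values were seen. It had values of 14.10, 14.25 and 14.40 at -22 h, 14.25, 14.37, 14.39 and 14.30 at 3 h, 14.13, 14.01, 14.16 and 14.09 at 6 h, 13.81, 13.85 and 13.89 at 9 h, 13.71, 13.65, 13.80 and 13.67 at 12 h, and 13.20, 13.47 and 13.56 at 48 h. From 9 h on all its values lay below those of -22 h, and the lowest were those of 48 h. The changes were -0.39 (SE 0.04) at 9 h, -0.54 (SE 0.05) at 12 h and -0.82 (SE 0.04, adjusted p = 3.78e-15) at 48 h. It was the only one of the 34 genes whose largest fall came at 48 h. The small change at 6 h, -0.14, did not pass with the cow as a block (adjusted p = 0.0512) or without cow 3, 6 or 8 (adjusted p from 0.0524 to 0.134).

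The fall was deeper in the peroxisomal than in the mitochondrial cycle in every cow at 9 h. Within a cow, the median change of the 10 peroxisomal genes against its own array at -22 h lay between -2.57 and -1.91, and that of the 16 genes of mitochondrial oxidation between -1.31 and -0.84. The peroxisomal median was the lower one in 8 of 8 cows at 9 h, in 4 of 4 at 6 h and in 4 of 4 at 12 h. At 3 h it was the lower one in 2 of 4 cows and at 48 h in 2 of 8. The genes of each group share the cows and the arrays, so these counts describe the cows and no test was made over the genes.

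**Figure D3:**
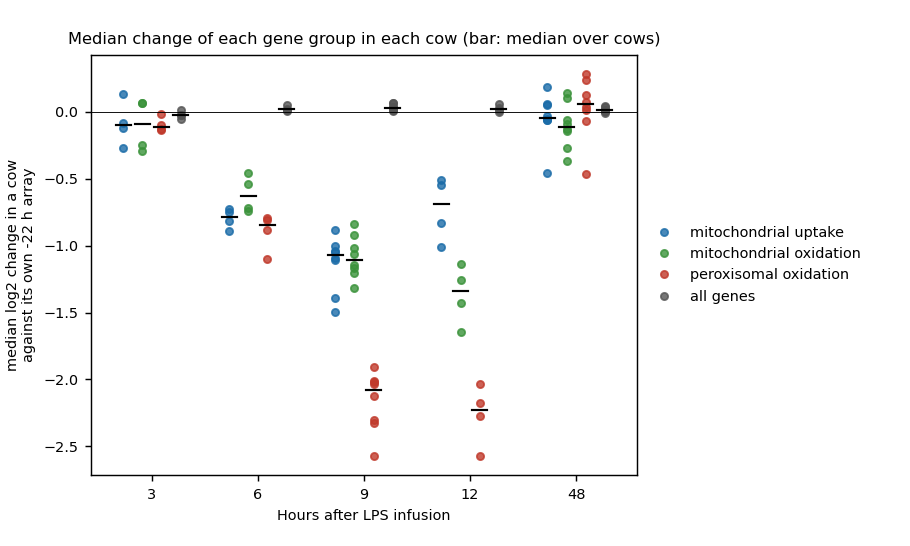
Median log2 change in each cow against its own array at -22 h (y axis) at each hour (x axis), with 1 point per cow for the 6 genes of uptake, the 16 of mitochondrial oxidation, the 10 of peroxisomal oxidation and all 9155 genes, and a bar for the median over cows. At 9 h the peroxisomal medians lie between -2.57 and -1.91, below those of mitochondrial oxidation in all 8 cows, and the medians of all genes lie near 0.

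Of the ketogenic genes only ACAT1 gave a measurable course. ACAT1, the mitochondrial acetoacetyl-CoA thiolase, had values of 12.87, 13.24 and 13.33 at -22 h, 12.97, 12.94, 12.83 and 12.98 at 3 h, 12.53, 12.65, 12.40 and 12.62 at 6 h, 11.84, 12.07 and 12.52 at 9 h, 11.77, 11.81, 11.52 and 11.97 at 12 h, and 12.81, 13.15 and 13.50 at 48 h. At 6, 9 and 12 h it lay below all values of -22 h, with changes of -1.05 (SE 0.09, adjusted p = 5.22e-12) at 9 h and -1.40 (SE 0.11, adjusted p = 1.74e-12) at 12 h. BDH1, the dehydrogenase that interconverts acetoacetate and 3-hydroxybutyrate, lay between 1.87 and 1.99 on all 36 arrays. It was counted as higher at 9 and 48 h, each by 0.03 (SE 0.01), but at the lower end of the scale such a shift cannot be read as a change of the transcript. Its call at 9 h was lost with the cow as a block (adjusted p = 0.0545) and without any cow but cow 2 (adjusted p from 0.0589 to 0.117).

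The falling genes separated into those that were lowest at 9 h and those that went on falling. Of the 31 genes whose largest change was a fall, 2 had it at 6 h, 9 at 9 h, 19 at 12 h and 1 at 48 h. When 12 h was compared with 9 h directly, 11 genes were lower and 6 higher at 12 h, against 10.5% and 16.3% of all genes. The lower ones included SLC27A2 (-1.36, SE 0.17), HSD17B4 (-0.85, SE 0.18), ECI1 (-0.83, SE 0.12), CROT (-0.74, SE 0.13), SCP2 (-0.73, SE 0.15), ACADM (-0.64, SE 0.13) and ACAA2 (-0.49, SE 0.09). The higher ones included CRAT (1.43, SE 0.14), DECR2 (0.62, SE 0.10) and CPT2 (0.60, SE 0.11). Each of these 10 genes moved the same way in 4 of 4 cows and passed with any cow left out. The comparison sets 4 cows against 8, and for SCP2, which had fallen further by 9 h in the 4 cows, the change from 9 to 12 h with those cows alone was -0.36. The calls of ACAA1, ACAT1, PHYH, SLC25A20, ACOX2, ACSL3 and ETFB were each lost without at least 1 cow (adjusted p from 0.0505 to 0.194), that of ACAA1 without cow 8, those of ACAT1 without cow 1 or 7, SLC25A20 without cow 3 or 7, ACOX2 and ACSL3 without cow 1 or 8, ETFB without cow 3, 7 or 8, and PHYH without any cow but cow 7. Without cow 8 the higher count was 3. With the cow as a block 16 genes were lower and 6 higher, and when probe sets were averaged HSD17B4 changed by -0.38 (adjusted p = 0.212).

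**Figure D4:**
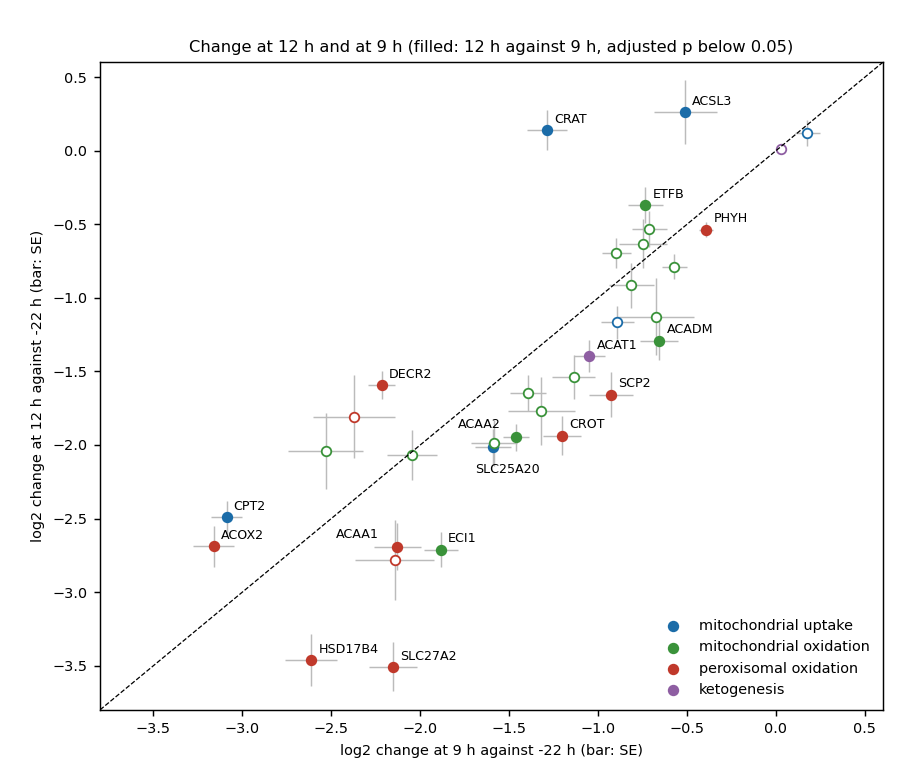
Log2 change at 12 h (y axis) against that at 9 h (x axis) for the 34 genes, each against -22 h, coloured by role, with bars for the SE. Genes under the dashed line of equality were lower at 12 than at 9 h, and filled and named points passed in the direct comparison. SLC27A2 and HSD17B4 lie furthest under the line, and CRAT lies furthest above it.

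At 48 h most genes were again near their level at -22 h, and 29 were higher than at 12 h while 2 were lower, against 19.8% and 32.4% of all genes. The lower count was 1 without cow 1 or 8, when ACSL3 no longer passed. Against -22 h, 8 genes were lower and 5 higher, or 23.5% and 14.7% of the list, against 16.2% and 15% of all genes. None was lower by 2-fold (0.874% of all genes). The lower genes were PHYH, ACADS (-0.78, SE 0.12, with all 8 values below those of -22 h, as in 2.56% of all genes), ACADL (-0.59), ACSL5 (-0.50), ACSL3 (-0.49), ECHS1 (-0.28), ECI2 (-0.27) and ACAA2 (-0.25). Over all 42 probe sets of the list the lower count was also 8, so the dimmer probe sets of ACADL and ACSL3 did not pass. The higher genes were ACADSB, CRAT, DECR2 (0.31, SE 0.08), ECI1 (0.27, SE 0.10) and BDH1.

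Of the 13 calls at 48 h, 6 were lost when a single cow was left out. That of ECI1 was lost without cow 1, 3, 4, 5, 6 or 8, ECI2 without cow 1, 2, 3, 4, 6 or 8, BDH1 without cow 1, 2, 3, 4, 5 or 6, ACSL3 without cow 1, 2, 3 or 4, ACADL without cow 1, 2 or 6, and ACAA2 without cow 1 (adjusted p from 0.0541 to 0.203), so that 4 genes were lower without cow 1, 5 without cow 2, and 3 were higher without cow 1, 3, 4, 5 or 6. The cows at 48 h were not alike: the median change of the 34 genes was -0.40 in cow 2 and between -0.10 and 0.15 in the other 7. Without the array of cow 2 at 48 h 5 genes were lower and 6 higher. With the cow as a block 10 were lower and 6 higher, with ETFB (-0.24, adjusted p = 0.0234) and HSD17B4 (-0.20, adjusted p = 0.0433) added to the lower and ACOT8 (0.43, adjusted p = 0.0348) to the higher ones. After centring by the median of the bright probe sets of an array, the level at 48 h moved by 0.13 and the split became 4 lower and 11 higher. PHYH, ACADS, ACSL5, ACADSB, CRAT and DECR2 passed in the same direction in all of these settings.

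ACADSB, the dehydrogenase for short branched acyl-CoAs such as those from isoleucine, was the only gene of the list that was more than 2-fold higher at any hour (1.31% of all genes at 48 h). It had values of 4.44, 4.87 and 5.94 at -22 h, 4.66, 4.33, 4.50 and 4.46 at 3 h, 4.40, 4.32, 4.43 and 4.32 at 6 h, 3.93, 4.21 and 4.99 at 9 h, 4.23, 3.90, 3.19 and 4.15 at 12 h, and 5.84, 6.91 and 7.49 at 48 h. At 48 h each of the 8 cows was above its own value at -22 h, although the lowest value overlapped with the highest of -22 h. The change was 1.91 (SE 0.21, adjusted p = 1.53e-07), or 376% of the level at -22 h, after a fall of -1.13 (SE 0.26, adjusted p = 0.000535) at 12 h. From 3 to 12 h the values of ACADSB lay below 5, and at -22 h the median did too. These values are not far above the lower end of the scale, so the sizes of its fall and rise may be bounds. DECR2, the peroxisomal reductase for unsaturated chains, had values of 10.05, 10.22 and 10.38 at -22 h, 10.24, 10.08, 10.34 and 10.20 at 3 h, 9.17, 9.18, 9.39 and 9.10 at 6 h, 7.76, 8.01 and 8.21 at 9 h, 8.90, 8.35, 8.50 and 8.67 at 12 h, and 10.17, 10.57 and 10.76 at 48 h. Its second probe set was higher by 0.81 (SE 0.17, adjusted p = 0.00106) at 48 h, so both probe sets passed as higher after a fall of more than 2-fold at 9 h.

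The cows with a biopsy at every hour had been sampled more often before 9 h than the other 4 cows, and the changes in both sets of cows were compared. With limma none of the 34 genes differed between the sets in its change at 9 h (2 at an unadjusted p below 0.05, smallest adjusted p = 0.499) or at 48 h (0 at an unadjusted p below 0.05). No gene of the 9155 did so (0% at either hour). The 2 genes were SCP2, with a change of -1.27 in the 4 cows with all hours and -0.59 in the others (unadjusted p = 0.000634 in limma), and ACSL1, with 0.01 and 0.34 (unadjusted p = 0.0166 in limma). Without cow 2 the difference in SCP2 passed (adjusted p = 0.0348). Between the cows of 1 hour the median SD of the 34 genes was 0.19 at -22 h, 0.23 at 9 h and 0.21 at 48 h, and that of all genes was 0.23, 0.21 and 0.20.

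Genes next to this pathway, taken from lists that are not part of it, were counted in the same way at 9 h, when 28.4% of all genes were lower and 36.6% higher. Of 12 other enzymes that oxidize or cleave acyl-CoAs, 10 were lower and 2 higher, with AMACR, the racemase of branched acyl-CoAs, at -4.87 (SE 0.18), IVD of leucine breakdown at -2.65 (SE 0.15) and HACL1, the lyase of alpha-oxidation, at -2.48 (SE 0.14). Of 4 genes of carnitine supply, 3 were lower, with BBOX1, the last enzyme of carnitine synthesis, at -4.83 (SE 0.27), ALDH9A1 at -1.72 (SE 0.11) and TMLHE at -1.48 (SE 0.17), while the carnitine transporter SLC22A5 was higher at 0.83 (SE 0.17). The propionyl-CoA route, which takes up the odd end of a chain and the propionate of the rumen, had 5 of 6 genes lower, with MCEE at -1.37 (SE 0.11), MMUT at -1.33 (SE 0.07) and PCCA at -1.14 (SE 0.10).

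Other neighbours were mixed, beside the same 28.4% and 36.6% of all genes. Of 8 genes of fatty acid entry and binding, 5 were lower and 1 higher, with the fatty acid receptor CD36 at -3.31 (SE 0.35), SLC27A4 at -2.74 (SE 0.26) and SLC27A5 at -1.67 (SE 0.13). Of 11 genes of peroxisome assembly and import, 5 were lower and 2 higher, with the transporter ABCD3 at -2.94 (SE 0.26), PEX10 at -2.89 (SE 0.19) and PEX14 at -1.60 (SE 0.18), while PEX11A and PEX19 were the higher ones. Of 3 other ketone body genes BDH2 was lower at -1.89 (SE 0.30) and SLC16A1, a carrier of lactate and ketone bodies, was higher at 4.17 (SE 0.22).

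Of 19 regulators, 8 were lower and 5 higher at 9 h, against 28.4% and 36.6% of all genes. PPARA, the nuclear receptor known to switch on these genes in fasting, changed by -0.93 (SE 0.34, adjusted p = 0.0265) at 6 h and by -0.57 (SE 0.28) at 9 h, which did not pass. Its partner RXRA was lower at 9 h by -2.55 (SE 0.12), HNF4A by -2.40 (SE 0.25) and PDK4, the kinase that holds back pyruvate oxidation, by -4.84 (SE 0.44). The coactivator PPARGC1A was higher by 2.76 (SE 0.30) at 9 h, at the same time as the oxidation genes were lower.

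Markers of other cells were counted at 9 h, when 28.4% of all genes were lower and 36.6% higher. Of 10 leukocyte markers 4 were higher at 9 h (36.6% of all genes), with S100A8, S100A9 and S100A12 at 6.19, 6.43 and 5.88, while PTPRC, the common leukocyte antigen, stood at 0.41 (SE 0.26) and did not pass, and ITGAM was at the lower end of the scale on every array. Their summed signal lay between 3516 and 5029 at -22 h and between 9818 and 39751 at 9 h. Of 6 macrophage and Kupffer cell markers 3 were lower, with CD68 at 0.07 (SE 0.21), and the summed signal went from between 16618 and 29789 to between 10335 and 19340. Of 5 endothelial markers 3 were lower and 1 higher, with PECAM1 at -1.10 (SE 0.18), and the sum went from between 756 and 1537 to between 337 and 546. Of 5 stellate cell, 4 biliary and 3 erythroid markers 1, 1 and 1 were higher and 0, 1 and 0 lower, and KDR, HBA and ALAS2 were at the lower end on every array. Summed signals went from between 1425 and 4035 to between 2246 and 5604 for the stellate cell markers, from between 252 and 1601 to between 74.2 and 290 for the biliary ones, and from between 17.0 and 20.7 to between 18.2 and 97.7 for the erythroid ones. The part of these markers in the fall of the oxidation genes was not tested.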

How the data were processed

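Liver RNA was labelled with biotin and hybridised to 1 array per cow and time point. The deposited values are log2 signals which the authors made with GCRMA, 1 per probe set and array. They range from 0.686 to 16.37 and were used without further normalization. Values near the lower end cannot show a fall, and depth does not apply to arrays.

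Genes were taken from the platform annotation, with symbols updated to RefSeq: 13292 probe sets name 1 gene, 86 several and 10724 are not listed. For a gene with several probe sets the brightest on average was used. All 24128 probe sets (112 of them controls) entered a linear model in limma 3.58.1 (R 4.3.3) over all 36 arrays, with a mean for each hour and no cow term. P-values were adjusted over all probe sets (Benjamini-Hochberg, or Bonferroni for successive hours). SE is that of limma, and n is the number of cows. The scripts were tested on simulated data, and figures were drawn in Python 3.11.15.

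The members, the neighbouring lists and the cell type markers were chosen with earlier results of these data known. Values on every array were given for up to 4 members of each role with the largest change, and for members that passed against their group. They were also given for members whose probe sets disagreed in sign above the lower end of the scale. In the neighbouring lists and the leukocyte markers the change was given for the first gene, where measured, and for up to 3 with the largest change at 9 hours. For the hepatocyte, macrophage and endothelial markers it was given for the first gene only. For the stellate cell, biliary and erythroid markers it was given for none. The other genes of these marker lists entered only the counts and the sums. HNF4A, SLC22A5, PEX11A and PEX19 were named beyond this rule, as were markers at the lower end of the scale. PHYH was added after its values were seen.

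The cow pairs the arrays through its identity in the labels, which differs from the replicate number at some hours. Deviations of 1 cow from the hourly means correlated at 0.289 on average between -22 and 9 hours (0.215 to 0.431) and, for different cows, at -0.04. The model has no cow term, and the cow as a fixed or random block was an alternative. The others were leaving out 1 cow at a time, keeping the 4 cows biopsied at every hour, leaving out single arrays, array weights, median centring (over probe sets with a mean of at least 5), a filter on dim probe sets (a value of at least 5 in 4 arrays), another variance prior, Bonferroni adjustment and averaging probe sets. For the comparisons of 12 with 9 hours and of 48 with 12 hours they were chosen after seeing the data. Raw array files and blood values were not used here, and no sequences or coordinates are given.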

Additional observations from a re-analysis of the deposited data

Results flagged for a closer look

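Of 204 groups of values (34 genes at 6 hours), 14 held 1 cow whose value stood apart from the others by more than the limit of Dixon's test. Chance gives about 1 in 20 groups. No gene rose in every cow of either set while it fell in every cow of the other at 9 or 48 hours. This rule looks at direction only and is not a test of a difference in size.

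At -22 hours the value that stood apart was 6.95 for CRAT (lowest, cow 2), 10.99 for ACADS (highest, cow 1), 11.08 for ETFA (lowest, cow 7), 10.20 for ACOX3 (highest, cow 6), 13.75 for HSD17B4 (lowest, cow 3), 11.97 for CROT (lowest, cow 7) and 1.87 for BDH1 (lowest, cow 1). At 3 hours it was 13.45 for ACSL1 (lowest, cow 3), 14.12 for ECHS1 (highest, cow 7) and 11.13 for ECI2 (highest, cow 7). At 6 hours it was 10.12 for ACADS (highest, cow 8), and at 12 hours 13.18 for ACSL1 (lowest, cow 8). At 48 hours it was 12.96 for ACOX2 (lowest, cow 2) and 13.14 for CROT (highest, cow 1). The value of ACSL1 in cow 8 bears on a call: without that cow ACSL1 passed as higher at 12 hours, at 0.27 (adjusted p = 0.00725). No array held more than 2 of the 14 values.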

How the results depend on the processing

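The falls at 6, 9 and 12 hours kept their direction in every alternative run. In the alternatives other than leaving out a cow, 29 to 32 of the 34 genes were lower at 9 hours and 26 to 30 at 12 hours. At 6 hours 13 to 31 were lower, and 21 to 32 were DE. No result reversed. What moved were small counts, small changes and 48 hours, and with Bonferroni adjustment also larger counts. With it the lower genes were 13 at 6 hours and 2 at 12 against 9 hours. Larger falls at 6 hours also lost their call there, among them ACOT8 (-1.19) and HADH (-0.83). BDH1 is limited by its signal at the lower end, and the cause of the other shifts was not tested.

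With the cow as a fixed replicate block 1 gene was lower at 3 hours, 0 were higher at 6 hours and 1 at 9 hours, and the random block moved no count by more than 1.5 times. With only the 4 cows with all hours 1 gene was lower at 3 hours, 0 were higher at 6 and at 9 hours, and 3 were lower and 3 higher at 48 hours. Without the array of cow 2 at 48 hours 1 gene was higher at 9 hours and 5 were lower at 48 hours, and without that of cow 1 at -22 hours 2 were lower at 3 hours and 1 higher at 9 hours. Array weights gave 4 lower and 1 higher at 3 hours and 2 higher at 6 hours. Median centring gave 1 higher at 9 hours, and 4 lower and 11 higher at 48 hours. The filter on dim probe sets, which left 33 of the genes, gave 1 lower at 3 hours and 1 higher at 9 hours, the other variance prior 2 higher at 6 hours, and the mean of probe sets 1 higher at 9 hours and 1 lower at 48 than at 12 hours. Bonferroni adjustment gave 13 lower and 0 higher at 6 hours, 0 higher at 9 hours, 2 lower and 1 higher at 48 hours, 2 lower and 2 higher at 12 than at 9 hours, and 0 lower at 48 than at 12 hours.

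Leaving out each cow in turn gave 0 to 1 genes lower at 3 hours and 0 to 0 higher, 23 to 27 lower and 0 to 1 higher at 6 hours, 31 to 32 lower and 0 to 1 higher at 9 hours, 29 to 30 lower and 0 to 1 higher at 12 hours, and 4 to 8 lower and 3 to 5 higher at 48 hours. At 12 against 9 hours 9 to 15 were lower and 3 to 6 higher, at 48 against 12 hours 1 to 2 lower and 28 to 29 higher, and 19 to 26 were DE. Between the sets of cows 0 to 1 genes differed at 9 hours (1 without cow 2) and 0 to 0 at 48 hours.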
